A study of Mus musculus with 30 samples.

Results

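The cytosolic ribosomal protein genes encode the proteins of the ribosome that translates nuclear-encoded mRNAs. They were chosen by gene symbol alone (Rpl or Rps followed by a digit, Rplp0, Rplp1, Rplp2, Rpsa and Fau, without kinases, pseudogenes and mitochondrial ribosomal proteins), and 83 of the 17477 genes in the table were members. Of these, 49 encode proteins of the large (60S) subunit and 34 proteins of the small (40S) subunit. Rpl41 was not matched in the table and is not analysed here. The expression data are from the hippocampus of adult C57 BL/6J mice that were housed singly after weaning (social isolation, SI) or kept with cage mates (group housed, GH) until they were killed. The females were 8 SI and 7 GH mice, the males 7 SI and 8 GH mice, and each mouse was 1 library of polyA-selected RNA from whole frozen hippocampus. No mouse carried an engineered allele or received a drug. Whole tissue mixes neurons, glia and vessels, so fewer cells of a type and less RNA per cell cannot be told apart in any value here.

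A mammalian ribosome holds 1 copy of nearly every ribosomal protein, and cells make these proteins in balanced amounts. Their mRNAs are short, abundant and long-lived, and most begin with a run of pyrimidines right at the cap, the 5′ terminal oligopyrimidine (TOP) tract. Through this tract the mTORC1 kinase adjusts their translation to growth factors, nutrients and stress, and the protein LARP1 binds and stabilizes them when mTORC1 is inactive. In neurons, ribosomal protein mRNAs are also carried into dendrites and axons.

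The sequences around the annotated start were taken from RefSeq on GRCm38.p6 for the 63 members with an entry, and they are shown because the tract is the sequence feature by which these genes are usually grouped. Each stretch below holds the 50 bases before and the 20 bases after the start, written 5′ to 3′ on the strand of the gene. Capitals mark a C followed by at least 4 C or T that begins within 5 bases of the start. Rpl13a, Rpl31, Rps2, Rps16 and Rpl13 passed the test in females, Rps6 and Rps27 did not, and Rpl24 had the highest difference of all members in females.
Rpl13a, chr7:45128726-45128795, minus strand: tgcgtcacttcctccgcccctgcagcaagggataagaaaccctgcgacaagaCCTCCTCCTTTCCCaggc
Rpl31, chr1:39367801-39367870, plus strand: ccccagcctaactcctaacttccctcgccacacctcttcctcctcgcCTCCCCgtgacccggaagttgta
Rps2, chr17:24720013-24720082, plus strand: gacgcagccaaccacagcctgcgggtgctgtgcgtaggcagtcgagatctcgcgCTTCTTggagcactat
Rps6, chr4:86857348-86857417, minus strand: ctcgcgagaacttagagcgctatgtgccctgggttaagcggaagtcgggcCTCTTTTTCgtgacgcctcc
Rps27, chr3:90213629-90213698, minus strand: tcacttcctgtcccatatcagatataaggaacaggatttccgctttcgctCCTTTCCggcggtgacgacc
Rps16, chr7:28350639-28350708, plus strand: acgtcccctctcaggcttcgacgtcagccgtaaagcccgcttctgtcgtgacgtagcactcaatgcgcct
Rpl13, chr8:123102300-123102369, plus strand: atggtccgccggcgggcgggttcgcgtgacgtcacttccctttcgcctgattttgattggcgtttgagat
Rpl24, chr16:55966225-55966294, plus strand: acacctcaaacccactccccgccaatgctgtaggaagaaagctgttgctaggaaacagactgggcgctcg

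A tract of this kind was found in 30 of the 63 members (47.6%) and in 21.2% of the 27025 genes with a RefSeq start. Its absence from Rps16, Rpl13 and Rpl24 says only that these letters do not begin within 5 bases of the annotated start. Over the 250 bases before and 50 after the start, searched on both strands, the ETS motif CCGGAAG was in 26 members (41.3%) and in 9.9% of all genes. The YY1 motif AAGATGGC was in 6 members (9.5%) and in 3.2% of all genes, and TATAAA was in 7 members (11.1%) and in 15.7%. These matches are descriptions of the sequence and not measured binding sites.

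Total counts on genes ranged from 18809307 to 100844898 over the 30 libraries, with a median of 41297500. Libraries of SI males were the smaller in males, with a mean difference of -16960000 counts (two-sided exact permutation test over all 6435 splits, p = 0.0392, adjusted over 6 library comparisons p = 0.167). SI males 25, 33 and 39 stood apart from all other libraries by the slope of the relative log2 level of a gene on the log10 of its transcript length, computed over 14276 genes that are not members. A negative slope means that short transcripts took more of the counts. The slope was -1.33 in SI male 25, -1.27 in SI male 33 and -1.04 in SI male 39, whereas the other 12 males lay from -0.23 to 0.50 and the females from -0.36 to 0.47. The difference in slope between SI and GH was -0.02 in females (exact permutation test, two-sided p = 0.862) and -0.59 in males (exact permutation test, two-sided p = 0.0687). Ribosomal protein transcripts are short, with a median of 723.5 bases (from 345 to 3706) against 2341 over all genes tested, so male values are given with and without these 3 mice.

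The levels of the members in hippocampus spanned a wide range. Per length, the median over the 81 members that passed the filter on low counts was 329.3 CPM per kilobase of transcript, where CPM are normalized counts per 1000000 counts of a library. Rplp1, an acidic protein of the P stalk that recruits elongation factors, was highest with 1359 CPM per kilobase. Rps15 followed with 977.7 and Rpl13a with 854.2 CPM per kilobase. At the other end, Rpl12 had 17.2, Rpl5 20.6 and Rps4y2 29.7 CPM per kilobase. Rpl12 lies at the base of the stalk, and Rpl5 enters the 60S subunit in a complex with 5S rRNA. The value of a gene with processed copies depends on how reads were shared out between near-identical sequences. Rpl10-ps3 held 73.3% of the counts of Rpl10 and this copy, Rpl15-ps3 39.9% and Rps16-ps2 35.4% of theirs, so the levels of Rpl10, Rpl15 and Rps16 are uncertain. Copies whose identifiers had no symbol were not matched, so the levels of other members may be uncertain too.

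Several members have a paralog, and the pairs differed in balance on the scale of mean CPM per kilobase. Rps4x had 271.8 and Rps4y2 29.7, and Rpl36a had 172.0 and Rpl36al 131.3. Rpl22, by contrast, had 89.2 and Rpl22l1 125.1 CPM per kilobase. On the plain CPM scale, which is not divided by length, Rpl22 had 112.7 and Rpl22l1 61.2 CPM, so the order of this pair turns with the length correction. Rpl3l and Rpl39l, the forms best known from muscle and from testis, had mean counts of 7.9 and 3.7 per library and were too low to test within either sex.

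**Figure D1:**
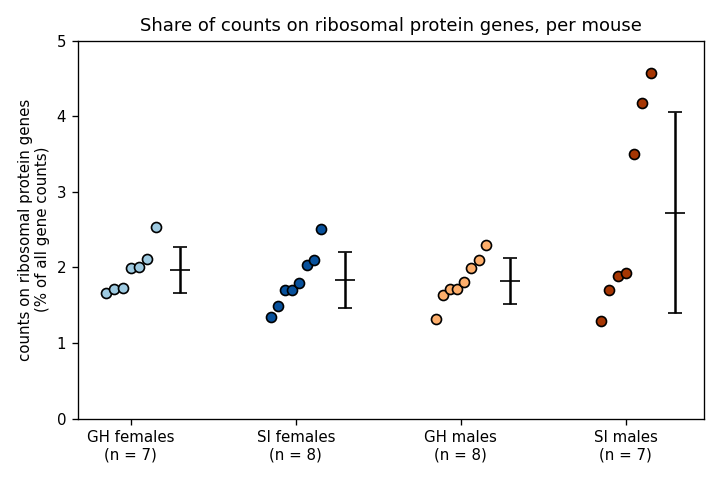
Share of all gene counts that fell on the 83 ribosomal protein genes (%, y axis) in each of the 30 mice (points) by sex and housing (x axis), with the mean and SD of each group as black bars. SI males 25, 33 and 39 lie between 3.51% and 4.57%, above every other mouse, and the female groups overlap.

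The share of counts on ribosomal protein genes ranged in GH females from 1.67% to 2.54% with a median of 1.99%. In SI females it ranged from 1.34% to 2.51% with a median of 1.75%, so the groups overlapped, and the lowest values were those of SI females 45 and 63. The mean of SI females was 1.83% ± 0.371 (SD, n = 8) and that of GH females 1.96% ± 0.306 (SD, n = 7). GH males ranged from 1.32% to 2.30% with a median of 1.76%. The 4 SI males other than 25, 33 and 39 ranged from 1.29% to 1.93%, within or just below the range of GH males. SI males 25, 33 and 39 had 4.57%, 4.18% and 3.51%, each above every other mouse of either sex. The balance between the subunits moved little by comparison. The 40S genes took from 40.8% to 43.6% of ribosomal protein counts over the 30 mice, where SI males 25 and 33 had the highest values, and SI male 39 had 42.8%, like GH female 78.

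**Figure D2:**
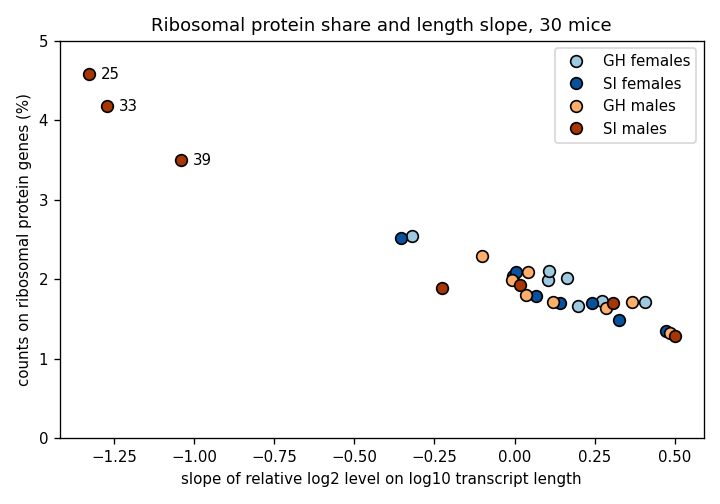
Share of counts on ribosomal protein genes (%, y axis) against the slope of relative log2 level on log10 transcript length (x axis), 1 point per mouse coloured by group. SI males 25, 33 and 39 combine the most negative slopes (-1.33 to -1.04) with the highest shares, and SI female 53 and GH female 78 have the most negative slopes (-0.36 and -0.32) and the highest shares among females.

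In females, 11 ribosomal protein genes were lower under SI and most others had negative values that did not pass the test. With 3 surrogate variables (estimates of hidden variation between libraries) in the model, 78 of 81 members had a negative difference (Log2FC, SI minus GH) and 3 a positive one. The median Log2FC was -0.15, which is a level 9.78% lower, while the median over all 16026 genes was 0.01 and 47.2% of them were negative. The members varied less among themselves than genes at large, with an SD of Log2FC of 0.07 against 0.17 over all genes. In edgeR's quasi-likelihood test, 11 of 81 members passed a Benjamini-Hochberg adjusted p of 0.05 over all genes, all of them lower, where 2.93% of all genes passed and were lower. At an unadjusted p under 0.05 there were 71 members, 70 of them lower, where 20.2% of all genes passed in either direction. Members are correlated with each other across mice, so these counts are not independent observations.

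**Figure D3:**
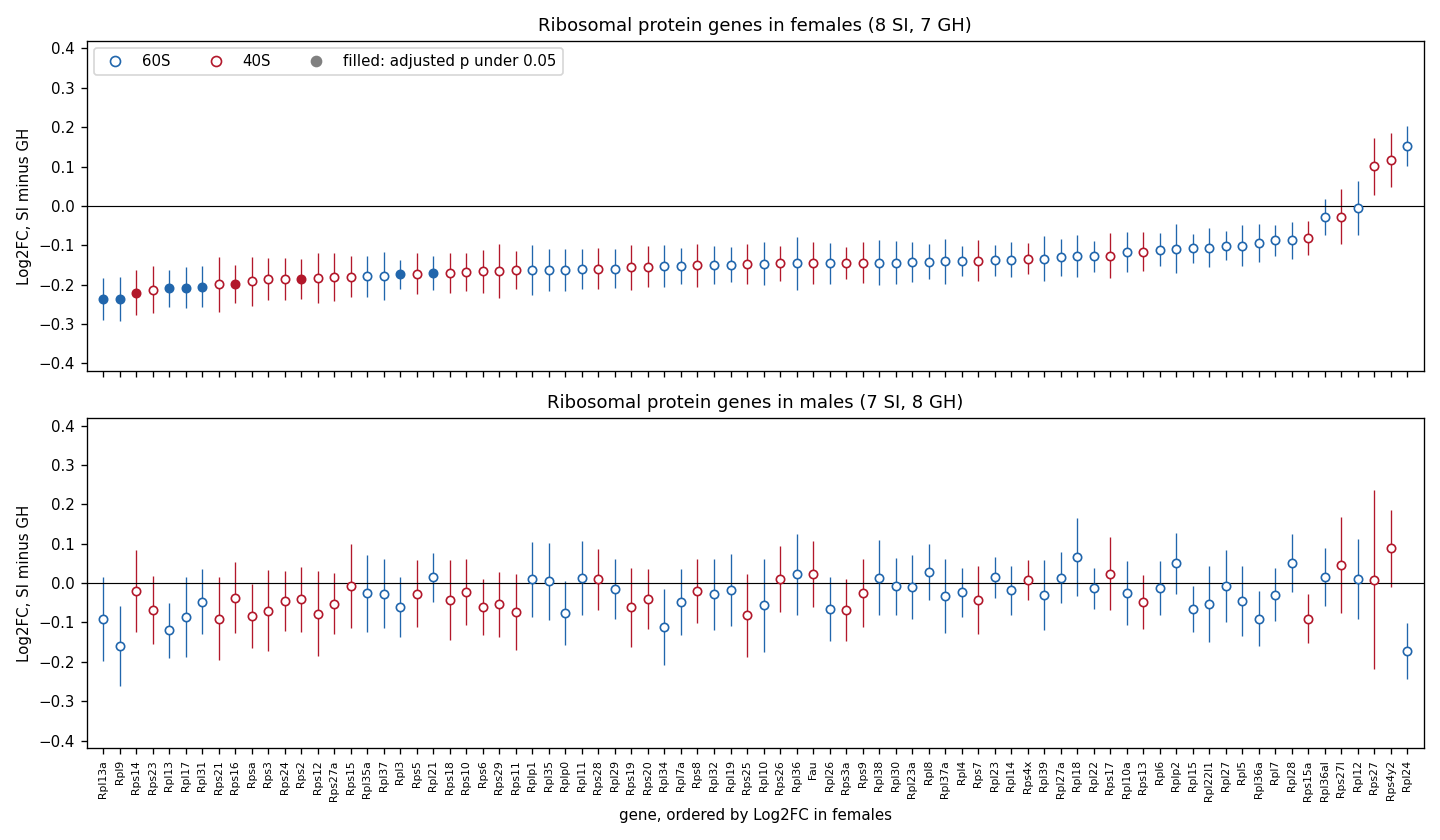
Log2FC of SI minus GH (y axis, bars are the standard error) for 80 of the 81 ribosomal protein genes tested, in females above and males below, ordered along the x axis by their value in females. Blue points are 60S and red points 40S genes, and filled points passed an adjusted p of 0.05. Filled points occur in females only (10 genes shown), and Rpl24 is the highest in females and the lowest in males.

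These calls were lost when the surrogate variables were left out, whether with no covariate or with the position digit of the labels as a factor. Without surrogate variables or a covariate, 79 of 81 members were still negative with a median Log2FC of -0.15. In that fit 0 passed the adjusted test, where 0% of all genes passed, and 0 had an unadjusted p under 0.05, where 11.7% did. DESeq2 called 41 members lower with the surrogate variables, where 5.31% of all genes were, and 0 without them, where 1.85% were. Leaving out any of SI females 49, 63 or 73 or GH females 48 or 54 brought the edgeR count with these variables to 0. In these fits 1.06% to 1.82% of all genes were called in either direction, against 3.89% with every female kept. Leaving out GH female 46 raised the count to 49, where 8.55% of all genes were called. Without SI female 68 it was 2, where 0.55% of all genes were called. With a mouse left out, the median Log2FC stayed between -0.19 and -0.12. On unadjusted normalized CPM, the SI and GH groups overlapped for every member (0 of 81 apart, where 0.312% of all genes were apart).

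The 60S members had a median Log2FC of -0.14 in females, with 46 of 47 negative and 8 called. Rpl3, which lies near the peptidyl transferase center (ENSMUSG00000060036 in the table), had the smallest p. Its normalized CPM was 702.7, 869.3 and 1072 in GH females (lowest, median, highest) and 553.6, 718.2 and 932.3 in SI females. The groups overlapped, with 3 of 8 SI females below every GH female. Its Log2FC was -0.17 (SE 0.036, edgeR adjusted p = 0.0144), and after removal of the surrogate variables its 8 SI females lay from 9.49 to 9.58 log2 CPM, all below the 7 GH females at 9.61 to 9.78. Rpl3 was the only member with that separation. These values keep the fitted difference between the groups, so they are not support beyond the test itself. How many of all genes were separated in this way was not computed. Rpl13a, also known for its release from the ribosome to silence inflammatory mRNAs, had 681.0, 829.8 and 1138 CPM in GH females and 492.9, 683.9 and 1003 in SI females. Of the SI females, 4 of 8 were below every GH female, and the Log2FC was -0.24 (SE 0.053, edgeR adjusted p = 0.0221). Rpl9, near the base of the stalk, had 291.4, 417.9 and 541.9 CPM in GH and 217.6, 328.7 and 544.1 in SI females. Its highest mouse of all was an SI female, and the Log2FC was -0.24 (SE 0.055, edgeR adjusted p = 0.0268). Rpl13 (Log2FC -0.21), Rpl17 (-0.21), Rpl31 (-0.20) and Rpl21 (-0.17) were also called among the 60S genes, with edgeR adjusted p from 0.0244 to 0.0386.

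Several 60S members with well-studied roles did not pass the test. The P stalk genes Rplp0, Rplp1 and Rplp2 had Log2FC of -0.16, -0.16 and -0.11 in females (edgeR adjusted p = 0.0961, 0.163 and 0.359). Rpl5 and Rpl11, which bind Mdm2 with 5S rRNA when ribosome assembly fails, had -0.10 and -0.16 (edgeR adjusted p = 0.298 and 0.0867). Rpl10, an X-linked gene whose protein completes the 60S subunit, had -0.15 (edgeR adjusted p = 0.142). Rpl8, Rpl18, Rpl23a, Rpl29 and Rpl35a lay from -0.18 to -0.13, with edgeR adjusted p from 0.0651 to 0.190.

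The 40S members had a median Log2FC of -0.16 in females, with 32 of 34 negative and 3 called. Rps14, a protein of the 40S platform, had 335.1, 446.5 and 657.6 CPM in GH females and 264.6, 362.8 and 558.3 in SI females. Only 2 of 8 SI females were below every GH female, and the Log2FC was -0.22 (SE 0.057, edgeR adjusted p = 0.0409). Rps16, whose tail contacts the tRNA in the P site, had 137.3, 151.6 and 211.2 CPM in GH and 98.8, 134.2 and 188.6 in SI females, with 4 of 8 SI females below every GH female. Its Log2FC was -0.20 (SE 0.048, edgeR adjusted p = 0.0319), and its copy Rps16-ps2 had -0.20 (edgeR adjusted p = 0.0812). Rps2, at the mRNA entry channel, was called at -0.19 (SE 0.050, edgeR adjusted p = 0.0496), close to the threshold. Rps6, the substrate of the S6 kinases and the usual readout of mTORC1, had 230.5, 304.5 and 374.7 CPM in GH females and 193.4, 259.6 and 369.9 in SI females. The groups overlapped over most of their range, and the Log2FC of -0.17 was not called (edgeR adjusted p = 0.0903). Rpsa, Rps3, Rps19, Rps27a, Fau and Rps4x lay from -0.19 to -0.13, with edgeR adjusted p from 0.0589 to 0.130. Rps27a and Fau encode fusions with ubiquitin and a ubiquitin-like protein.

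Unlike most members, 3 members were positive in females and 3 lay near 0. Rpl24 (ENSMUSG00000022601), a protein of the bridge between the subunits, had 33.5, 40.3 and 44.0 CPM in GH females and 35.5, 43.5 and 49.1 in SI females. SI females lay somewhat higher with much overlap, and the Log2FC was 0.15 (SE 0.051, edgeR adjusted p = 0.103). Per length the level of Rpl24 was low, at 61.1 CPM per kilobase against a median of 329.3 over the 81 members. Rps4y2, an autosomal copy related to Rps4x, had a Log2FC of 0.12 (edgeR adjusted p = 0.361), and Rps27, a zinc finger protein, had 0.10 (edgeR adjusted p = 0.468). Rps27 varied widely within groups, from 39.7 to 124.7 CPM in GH and from 57.2 to 130 in SI females. Rpl12, Rps27l and Rpl36al had Log2FC of -0.01, -0.03 and -0.03.

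The difference in females was set beside transcript length, mean level and the pyrimidine tract. Over the 81 members, Log2FC had r = -0.07 (Spearman rho -0.03) with transcript length and r = -0.67 (rho -0.56) with mean CPM, so that the more abundant members had the more negative values. These correlations are across genes that share the same libraries and are given without a test. Members with a pyrimidine tract at the annotated start and members without one there had the same median Log2FC, -0.15 (30 and 31 members tested). The split rests on the annotated start alone, so it does not compare mRNAs with and without a TOP tract.

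The values in females were of similar size when length and GC content were accounted for. After a trend of level on transcript length and GC content was taken out of each library, with 3 surrogate variables kept, 78 of 81 members were negative. The median Log2FC was -0.14, and 42 were called lower, where 5.50% of all genes were. With the trend removed and no surrogate variables, 77 were negative with a median of -0.14. In that fit 0 were called, where 0.256% of all genes were, and 5 had an unadjusted p under 0.05, where 15.1% of all genes did. With the length slope of each library as a covariate in place of surrogate variables, 79 members were negative with a median of -0.19 and 19 were called lower, where 3.13% of all genes were.

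**Figure D4:**
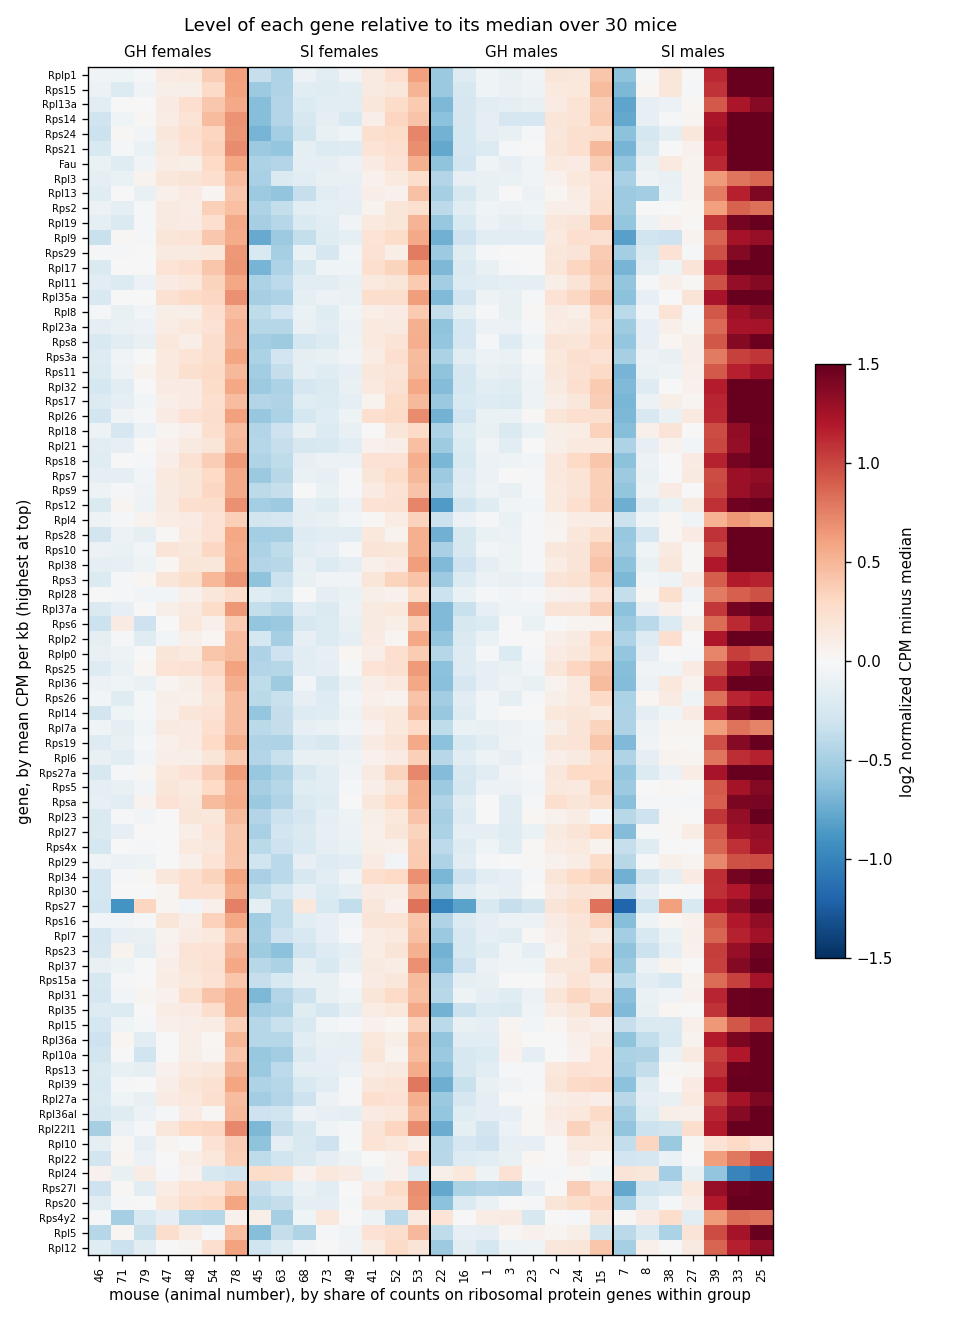
Level of 80 of the 81 tested ribosomal protein genes (rows, highest CPM per kilobase at the top) in each of the 30 mice (columns, by group and then by share of counts) as log2 normalized CPM minus the median of the gene over all mice, from blue (lower) to red (higher). Most rows rise and fall together from mouse to mouse, SI males 39, 33 and 25 are red in nearly all rows, and Rpl24 runs the other way in these 3 mice.

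In males, no member passed the test. With 2 surrogate variables 58 of 81 members were negative and 23 positive, with a median Log2FC of -0.03 against 0.00 over all genes. In edgeR's quasi-likelihood test 0 members and 0% of all 15833 genes passed an adjusted p of 0.05, and DESeq2 with the same variables called 0 members. At an unadjusted p under 0.05 there was 1 member, Rpl24, where 13.0% of all genes passed. Its Log2FC was -0.17 (unadjusted p = 0.0269, edgeR adjusted p = 0.349). The groups overlapped for every member in males too (0 of 81 apart, where 0.0568% of all genes were apart). Rpl3 had a Log2FC of -0.06 and Rpl13a of -0.09, both far from the threshold (edgeR adjusted p = 0.750 and 0.736).

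Without surrogate variables the male values were of another size and sign. Of 81 members 80 were positive, the median Log2FC was 0.68, and the range ran from -0.37 for Rpl24 to 0.97 for Rps24. The unadjusted p was under 0.05 for 72 members, 71 of them higher, where 30.1% of all genes passed, and 0 were called by edgeR. DESeq2 without surrogate variables called 5 members higher, where 1.67% of all genes were called higher. The sign turned when SI males 25, 33 and 39 were left out. Without them and without surrogate variables, 81 of 82 members were negative in the remaining 12 males, with a median Log2FC of -0.10 and 0 members at an unadjusted p under 0.05, where 3.36% of all genes passed. With 4 surrogate variables estimated anew in these 12 males, 42 of 82 were negative and the median was 0.00.

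The ribosomal protein genes of SI males 25, 33 and 39 were raised unevenly. In 79 of 81 members all 3 mice were above each of the other 12 males. The same count was not made over all genes, so it does not show whether this separation is particular to ribosomal protein genes. The log2 difference of the 3 from the other 12 had a median of 1.36. Rps24 was highest with 1.797, followed by Rps27l with 1.74 and by Rplp2, Rps14 and Rps27a with 1.71 each. Shorter transcripts tended to larger values, with r = -0.31 (rho -0.56) across the 81 members, which share these libraries. At the low end were Rpl4 with 0.65 and Rpl10 with 0.36, and Rpl24 was lower in the 3 mice by 0.89. For Rplp1, GH males had 373.7, 527.5 and 733.1 CPM and SI males 361.6, 622.6 and 1925, so the SI range enclosed that of GH males and extended far above it. For Rpl3, GH males had 572.7, 737.0 and 898.5 CPM and SI males 554.3, 801.4 and 1406. Rpl24 had 38.7, 40.5 and 47.1 CPM in GH males and 19.0, 28.7 and 46.5 in SI males. What sets these libraries apart was not tested. They had from 18809307 to 25609585 counts, and the other 12 males from 19349259 to 66575824 with a median of 45880000. The part of library size in the high share was not tested. SI male 8 had 19349259 counts with a share of 1.70% and a slope of 0.31. SI female 68 had 24565563 counts with a share of 1.70% and a slope of 0.24.

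Whether the difference with housing was unlike in females and males was tested by the interaction of sex and housing in all 30 mice. The interaction (Log2FC in males minus that in females) was positive in 76 of 82 members with a median of 0.11, but 0 members passed edgeR's adjusted test, where 0% of all genes did, and DESeq2 also called 0 members. At an unadjusted p under 0.05 there were 8 members (Rpl14, Rpl21, Rpl22, Rpl23, Rpl24, Rpl3, Rpl31 and Rps4x), where 7.75% of all genes passed. Rpl24 had the smallest p, with an interaction of -0.25 (unadjusted p = 0.00316, edgeR adjusted p = 0.498). The size of the interaction depended on the fit, with 0 members called by edgeR in each of the next 4 fits. Without surrogate variables the median was 0.81 and 95.1% of members had an unadjusted p under 0.05, a larger share than over all genes. With the length and GC trend removed the median was 0.09 and 32.9% of members had one, against 10.8% of all genes. Without GH male 15 it was 0.20 with 72.0% of members against 10.2%, and without SI male 38 it was 0.15 with 56.1% against 8.73%. Without SI male 7 the median was 0.29, and 80.2% of members had an unadjusted p under 0.05 against 18.3% of all genes. In that fit 3 members were called, where 0.989% of all genes were. Without SI males 25, 33 and 39 the median was 0.07. Side by side, 57 of 81 members were negative in both sexes, and 21 were negative in females and positive in males.

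**Figure D5:**
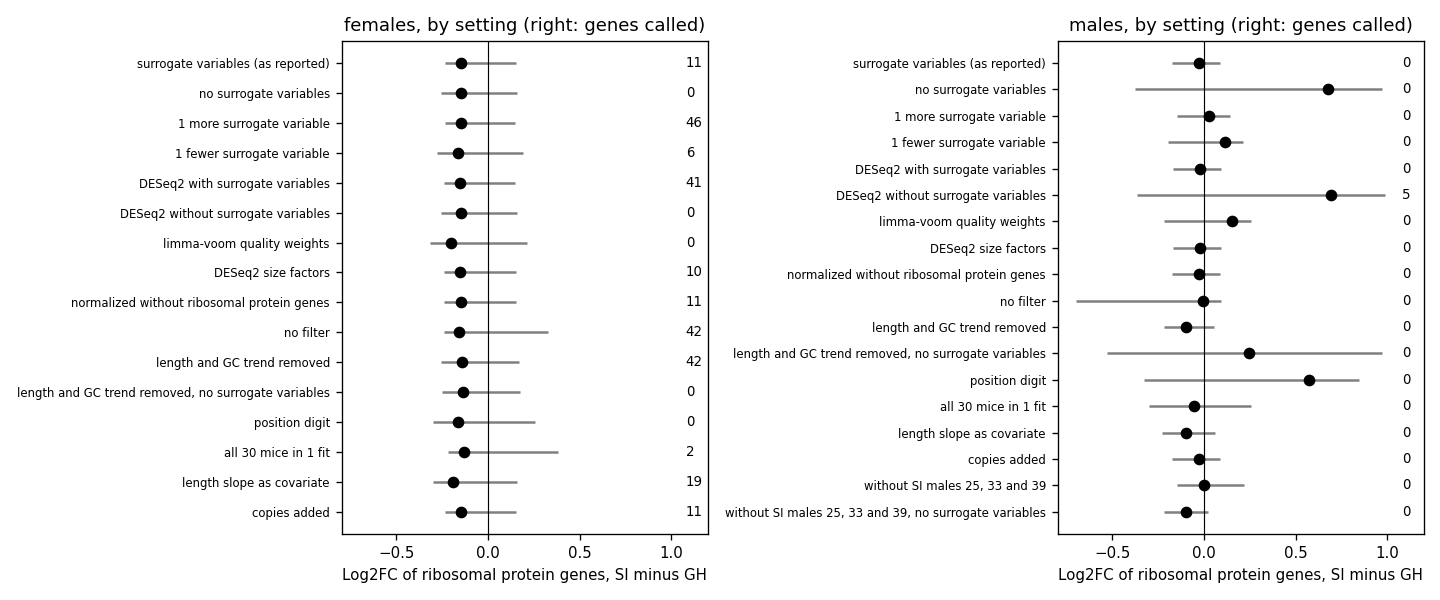
Median (points) and range (lines) of the Log2FC of the ribosomal protein genes, SI minus GH (x axis), under each way of processing (y axis), in females (left) and males (right), with the number of members called at the right edge. Female medians stay between -0.20 and -0.13 while the count called runs from 0 to 46, and male medians run from -0.10 to 0.69. The share of all genes called in females, not drawn, runs from 0% to 8.68% over the same settings.

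The genes around the ribosome in the cell gave values of both signs in females. Of the 21 other transcripts with a known TOP tract that were tested, all 21 were negative with a median Log2FC of -0.11, and 4 were called lower, where 2.93% of all genes were. Without surrogate variables 0 of the 21 were called by edgeR, and 2 had an unadjusted p under 0.05. The 4 genes were Eef2, the elongation factor that moves the ribosome along the mRNA (Log2FC -0.24, edgeR adjusted p = 0.0131), Eif3f (-0.18, edgeR adjusted p = 0.0417) and Eef1a1, which delivers aminoacyl-tRNA (-0.14, edgeR adjusted p = 0.0442). The last was Pfdn5, a prefoldin subunit that helps fold actin and tubulin (-0.19, edgeR adjusted p = 0.0464). Over the 45 translation factors, which share Eef2, Eif3f and Eef1a1 with that list, 24 were negative and 21 positive with a median of 0.00, and these 3 genes were the only ones called.

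Factors that assemble ribosomes in the nucleolus lay on the positive side in females. Of 70 tested, 56 were positive with a median Log2FC of 0.05, and 1 was called higher, where 0.961% of all genes were. This was Utp3, a part of the small subunit processome (0.15, edgeR adjusted p = 0.0496), and it was not called without surrogate variables. Nop56, a core protein of box C/D particles that guide rRNA methylation, had 0.16 (edgeR adjusted p = 0.0520). At an unadjusted p under 0.05 there were 18, all higher, where 20.2% of all genes passed in either direction. Without surrogate variables there were 14, all higher, where 11.7% of all genes passed in either direction. The share of all genes that passed and were higher was not computed. Among 37 genes of the mTORC1 pathway and its kinases 0 were called by edgeR's quasi-likelihood test, with a median of -0.01. In this list 8 had an unadjusted p under 0.05 in either direction, near the share of all genes. The nearest to the threshold were Rps6kl1 with 0.15 (edgeR adjusted p = 0.0740) and Rps6kb2, an S6 kinase, with 0.31 (edgeR adjusted p = 0.106). The 75 mitochondrial ribosomal proteins, which build the separate ribosome of mitochondria, had 25 negative and 50 positive values with a median of 0.01 and 0 called by edgeR (6 at an unadjusted p under 0.05, a smaller share than over all genes). The 13 protein genes that this ribosome translates, encoded in mitochondrial DNA, were all called lower, with a median Log2FC of -0.37, where 2.93% of all genes were. Without surrogate variables 0 of the 13 were called by edgeR, and 5 had an unadjusted p under 0.05.

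In males 0 genes of these lists were called, and the list medians were 0.01 for translation factors, -0.03 for other TOP transcripts, 0.03 for assembly factors, 0.02 for the mTORC1 pathway and 0.04 for mitochondrial ribosomal proteins. The 13 mitochondrially encoded genes were all negative in males, with a median of -0.20. Without surrogate variables the medians in males were 0.20 for translation factors, 0.27 for other TOP transcripts, 0.13 for assembly factors, 0.01 for the mTORC1 pathway and 0.02 for mitochondrially encoded genes. In the same fit, 74 of the 75 mitochondrial ribosomal protein genes were positive in males with a median of 0.48, in the same direction as the cytosolic ones.

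Some markers of brain cell types were called in the same female libraries, where 2.93% of all genes were called lower and 0.961% higher, and 0 markers of any list were called without surrogate variables. Of 8 astrocyte markers all were negative and 4 were called lower (Slc1a2, S100b, Slc1a3 and Aldh1l1), and the summed level of the list ran from 3752 to 5042 CPM under SI and from 4324 to 6071 under GH. Dentate granule cell markers were positive in 8 of 8 with 2 called (Plk5 and Lct), summing to 266.4 to 449.6 CPM under SI and 231.2 to 367.7 under GH. Endothelial markers were positive in 7 of 8 with 1 called (Flt1), at 244.6 to 297.4 CPM under SI and 216.2 to 245.9 under GH. Interneuron markers were positive in 6 of 8 with 1 called (Npy), and CA3 markers were negative in 2 of 6 with 1 called (Nnat). The lists for oligodendrocytes (8 of 8 negative), microglia (9 of 9 negative), CA1 (4 of 7 negative), thalamus (5 of 8 positive), striatum (6 of 8 positive) and choroid plexus (11 of 12 positive, median Log2FC 0.19) had 0 called, no marker was at 0 in all libraries, and hippocampal markers were present. In males, where 0 markers were called, all 8 thalamus markers were positive, summing to 137.4 to 316.8 CPM under SI and 132.8 to 166.4 under GH. Their median Log2FC was 0.49, and 6 had an unadjusted p under 0.05 in edgeR, where 13.0% of all genes did. Without SI males 25, 33 and 39 and without surrogate variables the median was 0.53. In that fit 5 had an unadjusted p under 0.05, where 3.36% of all genes did. Choroid plexus markers ran from 168.1 to 4768 CPM in SI males and from 168.4 to 2964 in GH males. The part of these cell types in the values of the ribosomal protein genes was not tested.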

How the data were processed

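RNA-seq counts from 30 mice were used (8 SI and 7 GH females, 7 SI and 8 GH males). Per the submitters' notes and the study's methods, the authors used Trimmomatic 0.39 for trimming and Salmon 1.8.0 for quantification, naming GRCm39 (mm39) as the build, and deposited whole-number counts per gene without normalization. Each column was matched to a mouse by its title, and 0 columns were left over. Of 17477 gene identifiers, 16439 had a symbol. Lengths and GC content came from the coding transcripts of GENCODE vM1, and start sequences from RefSeq on GRCm38.p6. These builds differ from that of the counts, so no position was carried between them.

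Each sex was fitted apart. Low genes were removed with filterByExpr (minimum count 10, minimum total 15), and the rest were normalized by TMM and tested with edgeR 4.0.16 (R 4.3.3, glmQLFit and glmQLFTest) for SI against GH. The svaseq function of sva 3.50.0 (20 permutations, seed 1) gave the surrogate variables, 3 in females, 2 in males and 4 over all mice. Benjamini-Hochberg adjustment ran over all genes tested, with a threshold of 0.05. Normalized CPM are counts per 1000000 of the TMM-scaled library size. The alternatives used DESeq2 1.42.0, limma 3.58.1 and a lowess of level on length and GC content (span 0.3), and the added ones were chosen after seeing the data. The steps were run on simulated counts with known changes and no hidden variation between libraries. That run therefore did not check how surrogate variables act in these data. Library values were compared by exact permutation over all splits within a sex, with the share of mitochondrial counts among the 6 comparisons added later.

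Members, gene lists and alternatives were chosen with earlier results of these data known. Named genes were chosen by role in the ribosome, by passing the test, by smallest p or by extreme level or difference, and from each list the called genes or the nearest to the threshold. Rps24, Rpl4 and the members listed for the interaction were chosen after their values were seen. The result of 1 called member is not reported here, although it is in the counts. Precision was limited by the spread between mice. The columns of the table hold counts alone, and separate handling of mice by batch was not stated in the sources used here.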

Additional observations from a re-analysis of the deposited data

Results flagged for a closer look

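Within-group gaps were examined for 164 combinations of a group with a named gene or a share of counts, and 4 had an extreme mouse whose gap to the nearest mouse exceeded Dixon's 95% critical value, where chance gives about 1 in 20. SI female 53 had 127 normalized CPM of Rpl39 (gap over range 0.569) and 130 of Rps27 (0.647), the highest of the 8 SI females. GH female 78 had 174 normalized CPM of Rplp2, the highest of the 7 GH females (0.656). GH male 22 had 183 normalized CPM of Rps6, the lowest of the 8 GH males (0.530). SI female 53 and GH female 78 also had the highest shares of counts on ribosomal protein genes and the most negative length slopes of the females, and GH male 22 had the lowest share among GH males.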

How the results depend on the processing

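In females the count of ribosomal protein genes called was 11 as reported, where 3.89% of all genes were called in either direction. The same share over all genes is given in brackets for each other setting. It was 0 without surrogate variables (0%), with DESeq2 without them (2.5%) and with limma-voom quality weights (5.23%). It was also 0 with the length and GC trend removed and no surrogate variables (0.256%), and with the position digit of the labels as a factor (0%). It was 2 with all 30 mice in 1 fit (2.67%), 6 with 1 fewer (3.43%) and 46 with 1 more surrogate variable (6.76%). DESeq2 with the surrogate variables gave 41 (7.87%), and the fit with no filter on low counts and 5 surrogate variables gave 42 (4.18%). The count was 42 with the length and GC trend removed (8.68%) and 19 with the length slope as a covariate (4.16%). Leaving out 1 mouse gave from 0 to 49 genes called and medians from -0.193 to -0.123, so the median was stable and the calls were not. In these fits the share of all genes called ran from 0.55% (without SI female 68) to 8.55% (without GH female 46). The cause was not tested. In males the median Log2FC of -0.026 became 0.678 without surrogate variables, 0.693 with DESeq2 without them and 0.574 with the position digit. It was 0.026 (60 of 81 positive) with 1 more and 0.116 (78 of 81 positive) with 1 fewer surrogate variable, and leaving out 1 mouse gave from -0.143 (without SI male 25) to 0.144 (without SI male 7). Ribosomal protein genes called in males were 5 with DESeq2 without surrogate variables, where 1.92% of all genes were called. With 1 mouse left out they were 0 to 1. The 1 was called without SI male 27, where 15.3% of all genes were called. For the interaction 0 to 3 were called with 1 mouse left out (3 without SI male 7, where 0.989% of all genes were called). The position digit is partly confounded with housing.

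Of 1170 alternative values for 39 named genes in females, 16 turned in sign, all for genes near 0 or uncalled. Rps27 became -0.007 without surrogate variables, -0.009 with DESeq2 without them, -0.111 with limma-voom and -0.020 with the length slope as a covariate. Rps27l became 0.003 with the length and GC trend removed and no surrogate variables and 0.000 with all 30 mice in 1 fit, where Rpl12 became 0.014. With 1 mouse left out, Rpl12 ran from -0.066 to 0.034, Rps27 from -0.004 to 0.142 and Rps27l from -0.086 to 0.015. In males Rpl3 and Rpl13a turned positive in 15 of 96 values that also include Rpl24. They became 0.355 and 0.602 without surrogate variables, 0.037 and 0.061 with 1 fewer, 0.369 and 0.617 with DESeq2 without them, and 0.074 and 0.124 with limma-voom. They became 0.139 and 0.244 with the length and GC trend removed and no surrogate variables, and 0.344 and 0.540 with the position digit. Without SI males 25, 33 and 39 Rpl3 had 0.007, and with 1 mouse left out Rpl3 ran from -0.137 to 0.074 and Rpl13a from -0.209 to 0.123. No paired analysis was possible because each animal number occurs in 1 group only. Adding the counts of processed copies to their genes left 11 genes called in females, where 3.84% of all genes were called.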
